A study of Mus musculus with 9 samples.

Results

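Galectins 1, 3 and 8 are the products of the mouse genes Lgals1, Lgals3 and Lgals8. They were chosen by gene name: a probe set belonged to them if the RefSeq accession in its identifier maps to one of these genes. Each gene had 1 probe set, so the members were 3 of the 909 named genes and 3 of the 1246 probe sets on the array. The cells were purified CD8 T cells of the B10D2 mouse strain with a transgenic T cell receptor. Their RNA was measured on the single-colour Affymetrix array GLYCOv4, which is built around glycan-related genes. Naive transgenic cells (3 arrays) were the control. Deletion cells (3 arrays) had met their cognate antigen in the animal as a weak signal, and anergy cells (3 arrays) had met it there as a strong signal. All samples came from females, and the labels used here give no age, no time after antigen and no name of the receptor or antigen. The study asked whether genes of protein glycosylation differ between cells on the way to deletion and cells on the way to anergy. Whether replicates were separate animals is not stated, so each p-value rests on a spread between samples that could be technical.

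Galectins are secreted and intracellular lectins that bind galactose in glycans, above all N-acetyllactosamine units. Galectin-1 works as a dimer of a single carbohydrate-binding domain and is known for lowering the survival and the effector output of activated T cells. Galectin-3 is the chimeric galectin: a carbohydrate-binding domain joined to a repetitive tail through which it forms multimers, and it cross-links branched N-glycans of surface receptors into a lattice. Galectin-8 has a pair of different carbohydrate-binding domains joined by a linker, binds sialylated glycans with its N-terminal domain, and marks damaged endosomes for autophagy inside the cell. In CD8 T cells galectin-1 and galectin-3 are known as genes that go up after activation.

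The promoters of Lgals3 and Lgals8 are shown, as no entry was found for Lgals1. The sequences are the 250 bases before the start of each gene, from RefSeq on GRCm38.p6, for which 2 of the 3 genes had an entry. They were searched on both strands for the letters of the GC box, GGGCGG. The same was done for TATAAA, the letters of the TATA box, and for the AP-1 element, written TGANTCA. The last motif was the CCAAT box, searched by the letters of its name. Capitals mark the matches, none of which overlapped another motif, and each line runs from 5′ to 3′ on the strand of the gene.
Lgals3, chr14:47373610-47373859, plus strand: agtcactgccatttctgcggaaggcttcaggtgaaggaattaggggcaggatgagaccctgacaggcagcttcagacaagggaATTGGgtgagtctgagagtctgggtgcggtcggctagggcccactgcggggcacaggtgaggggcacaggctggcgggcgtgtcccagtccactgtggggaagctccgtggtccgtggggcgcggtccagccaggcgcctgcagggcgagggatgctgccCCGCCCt
Lgals8, chr13:12461739-12461988, minus strand: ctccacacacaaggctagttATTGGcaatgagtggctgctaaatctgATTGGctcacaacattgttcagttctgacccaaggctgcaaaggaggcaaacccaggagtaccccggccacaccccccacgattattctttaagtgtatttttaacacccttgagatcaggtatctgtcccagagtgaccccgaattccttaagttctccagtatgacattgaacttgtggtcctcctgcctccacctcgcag
Lgals3 held 1 GC box, which begins 7 bases before the start, and 1 CCAAT box, which begins 167 bases before it. Lgals8 held 2 CCAAT boxes, at 230 and 203 bases before the start, and no GC box. Of 32851 promoters of the same length, 32.7% held a GC box and 33.8% a CCAAT box. Neither window matched the TATA box, held by 12.4% of all promoters, or the AP-1 element, held by 6.75%. The Lgals3 window was 66.0% G or C with 13 CpG dinucleotides, and the Lgals8 window was 49.2% G or C with 4, where the median promoter had 52.4% and 6. These matches are descriptions of the letters and show no binding.

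Lgals1 and Lgals3 were far higher in both antigen-experienced groups than in naive cells, and Lgals8 was lower in anergy cells. Each difference was tested with limma over all 9 arrays, with p-values adjusted by Benjamini-Hochberg over all 1246 probe sets and called below 0.05. Values are on the log2 scale, on which a difference of 1 is a 2-fold change. In deletion against naive, 2 of the 3 galectins were called, both higher, beside 19.0% of all probe sets called and 8.51% called higher. In anergy against naive all 3 were called, Lgals1 and Lgals3 higher and Lgals8 lower, beside 26.8% of all probe sets, 10.8% higher and 16.1% lower. In deletion against anergy none of the 3 passed in limma, where 3.37% of all probe sets did. For this comparison 2.09% of all probe sets were called higher and 1.28% lower. In it Lgals3 and Lgals8, 2 of the 3, had an unadjusted p under 0.05, as had 188 of the 1246 probe sets. These are bulk RNA samples, in which fewer cells of a type and less RNA per cell cannot be told apart.

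Lgals1, which encodes galectin-1, was measured by the probe set NM_008495.2_psr1_s_at. Its log2 values in naive replicates 1 to 3 were 9.86, 9.52 and 9.28. In deletion cells they were 12.53, 12.51 and 12.20, while anergy cells gave 12.66, 12.69 and 12.69. Every deletion array was above every naive array, by a gap of 2.34 between the nearest values. Every anergy array was in turn above every deletion array, by 0.13. The anergy arrays spanned only 0.03, against 0.33 in deletion and 0.58 in naive cells, and lay below the highest value of the whole table, 13.86. Lgals1 was 7.26-fold higher in deletion than in naive cells (95% limits 5.86 to 8.99; log2 12.41 ± 0.19 against 9.55 ± 0.29 as mean ± SD of 3 arrays each; limma adjusted p = 2.12e-07). It was 8.73-fold higher in anergy than in naive cells (7.05 to 10.8; 12.68 ± 0.02 in anergy; adjusted p = 9.1e-08). These were the 11th largest rise of 1246 probe sets in deletion and the 13th largest in anergy. Both comparisons share the naive arrays. Deletion and anergy differed by -0.27 ± 0.14 (SE), with 95% limits of -0.58 to 0.04 and adjusted p = 0.399, so a deletion level as much as 0.58 lower remains within the error. The suffix s of the probe set marks that it can bind more than 1 transcript, and a pseudogene, Lgals1-ps1, is annotated; what part other transcripts have in these values was not tested.

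Lgals3, which encodes galectin-3, was measured by NM_010705.2_psr1_s_at, again a probe set of the s type. Its values were 6.33, 5.92 and 6.46 in naive replicates 1 to 3. They were 9.54, 9.63 and 9.0 in deletion cells and 9.89, 9.94 and 9.83 in anergy cells. As for Lgals1, the groups did not overlap: naive arrays were lowest, deletion arrays 2.54 or more above them, and anergy arrays 0.20 or more above the deletion arrays. Galectin-3 transcript was 8.90-fold higher in deletion than in naive cells (95% limits 6.80 to 11.6; 9.39 ± 0.34 against 6.24 ± 0.28 as mean ± SD of 3 arrays each; limma adjusted p = 5.1e-07). The rise in anergy cells was 12.6-fold (9.59 to 16.4; 9.89 ± 0.06 in anergy; adjusted p = 1.42e-07). By size these rises were the 8th and the 9th largest of the 1246 probe sets. Between deletion and anergy the difference was -0.50 ± 0.17 (SE; 95% limits -0.88 to -0.11). Its unadjusted p was 0.0173, and it missed the threshold after adjustment (limma adjusted p = 0.178).

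In both genes deletion replicate 3 was the lowest of its group, 0.21 below the group mean for Lgals1 and 0.39 below it for Lgals3. Without that array the differences between deletion and anergy were -0.16 for Lgals1 (limma adjusted p = 0.681) and -0.30 for Lgals3 (adjusted p = 0.410). The rises over naive cells without it were 2.97 and 3.35 on the log2 scale. The distance of deletion from anergy in Lgals1 and Lgals3 was thus smaller by over 1.5 times without 1 array, and the distance of both from naive was not.

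Lgals8, which encodes galectin-8, was measured by NM_018886.4_psr1_at. In naive replicates 1 to 3 its values were 7.76, 7.86 and 7.94. Deletion cells gave 7.69, 7.64 and 7.44, and anergy cells gave 7.28, 7.29 and 7.0. The order of the groups was the reverse of that of the other two galectins, with naive arrays highest and anergy arrays lowest, and again no array overlapped another group. The steps were small: the nearest naive and deletion arrays were 0.07 apart and the nearest deletion and anergy arrays 0.15. Lgals8 fell 1.58-fold in anergy against naive cells (95% limits 1.36 to 1.85; 7.19 ± 0.16 against 7.85 ± 0.09 as mean ± SD of 3 arrays each; limma adjusted p = 0.000604). Neither neighbouring step passed the test. Deletion differed from naive by -0.26 ± 0.10 (SE; 7.59 ± 0.13 in deletion; limma adjusted p = 0.110). Deletion differed from anergy by 0.40 ± 0.10 (95% limits 0.18 to 0.62; limma adjusted p = 0.0639).

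Both steps of Lgals8 lay near the threshold. The difference between deletion and anergy was called after quantile normalization (0.34, limma adjusted p = 0.0499) and with array weights (0.33, adjusted p = 0.0401), and not with the replicate number as a block (adjusted p = 0.0569). Anergy replicate 3, whose probe sets scattered most around their group means (SD 0.166 against 0.094 to 0.128 in the other 8 arrays), also had the lowest Lgals8 value, 0.19 below its group mean. Without it anergy was still lower than naive, by 0.57 on the log2 scale (-0.57, limma adjusted p = 0.00143), the difference between deletion and naive was called (-0.26, adjusted p = 0.0440), and that between deletion and anergy was 0.31 (adjusted p = 0.123). For Lgals1 and Lgals3 the same array lay 0.01 above and 0.06 below the mean of the group.

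**Figure D1:**
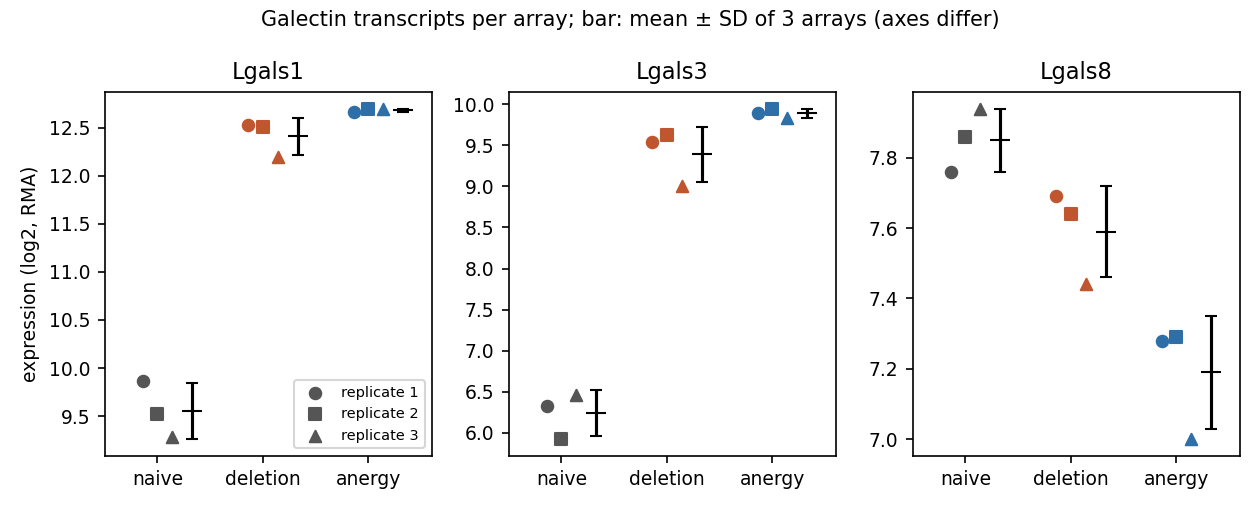
Log2 expression (vertical axis, a separate range in each panel) of Lgals1, Lgals3 and Lgals8 in each of the 9 arrays, with marker shapes for replicates 1 to 3 and black bars for the mean ± SD of the 3 arrays of a group. Lgals1 and Lgals3 step up from naive to the other groups by 2.86 or more, while Lgals8 goes down from a mean of 7.85 through 7.59 to 7.19.

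For none of the 3 galectins did arrays of different groups overlap, in any of the 3 comparisons. The groups also did not overlap for 31.5% of all probe sets in deletion against naive, 33.9% in anergy against naive and 16.6% in deletion against anergy. Against the array as a whole, Lgals1 and Lgals3 lay far out among the rises over naive cells and Lgals8 did not. The median absolute difference of all probe sets was 0.09 in deletion against naive and 0.12 in anergy against naive. By absolute size Lgals3 ranked 14th and Lgals1 18th of 1246 in deletion against naive, where Lgals8 ranked 302nd. In anergy against naive the ranks were 15 for Lgals3, 20 for Lgals1 and 155 for Lgals8. In deletion against anergy they were 45 for Lgals3, 80 for Lgals8 and 165 for Lgals1.

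**Figure D2:**
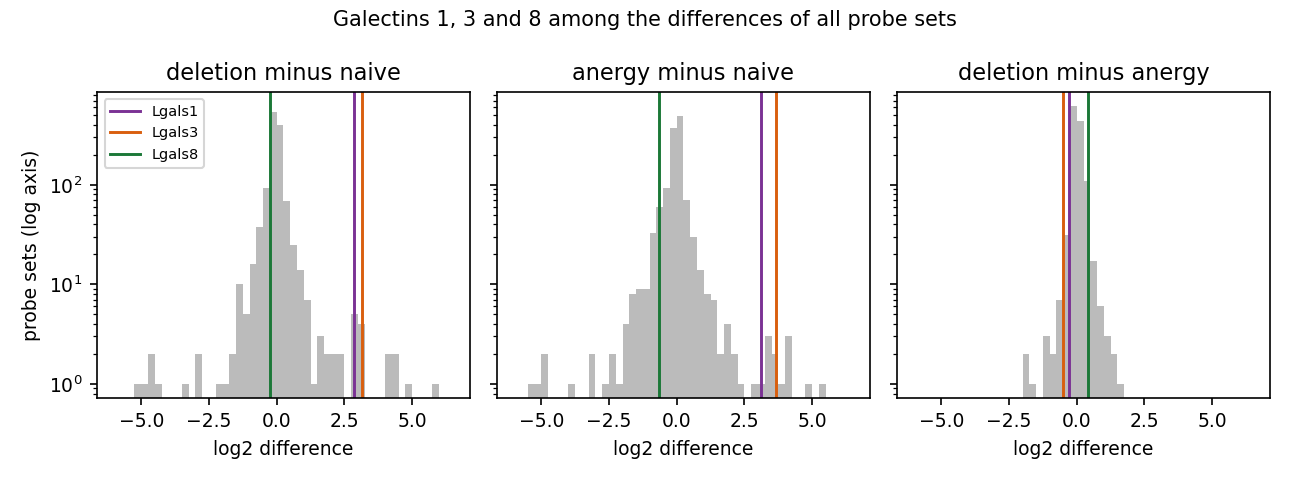
Histograms of the log2 differences of all 1246 probe sets (vertical axis: number of probe sets, log axis) in the 3 comparisons, with vertical lines at Lgals1, Lgals3 and Lgals8. In deletion minus naive Lgals1 (2.86) and Lgals3 (3.15) stand beyond the bulk of the probe sets, and Lgals8 (-0.26) stands within it.

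The array measured 7 other genes of the galectin family, each with 1 probe set, and against naive none of them moved as far as Lgals1 or Lgals3. In deletion against naive 1 of the 7 was higher, 1 was lower and 5 did not pass, beside 19.0% of all probe sets called. In anergy against naive 1 was higher, 2 were lower and 4 did not pass, beside 26.8% of all probe sets called. In deletion against anergy 1 of the 7, Lgals4, had an unadjusted limma p under 0.05, as had 188 of the 1246 probe sets. None of the 7 passed after adjustment, beside 3.37% of all probe sets called. Their differences from naive ran from -0.35 to 0.65 in deletion and from -0.55 to 0.49 in anergy, with medians of 0.05 and 0.07 beside -0.02 and 0.01 over all probe sets.

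The galectin-related gene Lgalsl rose, from 4.65 ± 0.11 (SD) in naive to 5.03 ± 0.10 in deletion (adjusted p = 0.0154) and 5.14 ± 0.15 in anergy cells (adjusted p = 0.00256), in limma with n = 3 arrays per group. Its call in deletion was lost without any 1 of 3 arrays, naive replicates 1 and 2 and deletion replicate 1 (limma adjusted p = 0.0653, 0.0639 and 0.0669). Grifin, a galectin relative of the eye lens, fell from 5.67 ± 0.09 to 5.32 ± 0.05 in deletion (limma adjusted p = 0.00524) and 5.22 ± 0.08 in anergy (adjusted p = 0.000715). Lgals4, galectin-4 of the gut, fell in anergy, from 6.68 ± 0.10 to 6.12 ± 0.05 (limma adjusted p = 0.00144). In deletion it was 6.41 ± 0.19 and passed only with array weights or without deletion replicate 2 (limma adjusted p = 0.0875 over all arrays).

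Lgals9, galectin-9, which binds the inhibitory receptor Tim-3, had means of 9.43 ± 0.10 in naive, 9.48 ± 0.05 in deletion and 9.69 ± 0.24 in anergy cells, and no comparison passed. The difference between anergy and naive, 0.26, was called after quantile normalization (0.36, limma adjusted p = 0.0296), with array weights and without anergy replicate 3 (0.37, adjusted p = 0.0199). Lgals7, galectin-7 of stratified epithelia, gave 6.06, 6.15 and 7.59 in deletion replicates 1 to 3 and did not pass, with 1 array far above the other two. Lgals2 (group means 4.32 to 4.39) and Lgals12 (3.05 to 3.17) lay below the lowest array median, 4.44, with differences of at most 0.12.

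**Figure D3:**
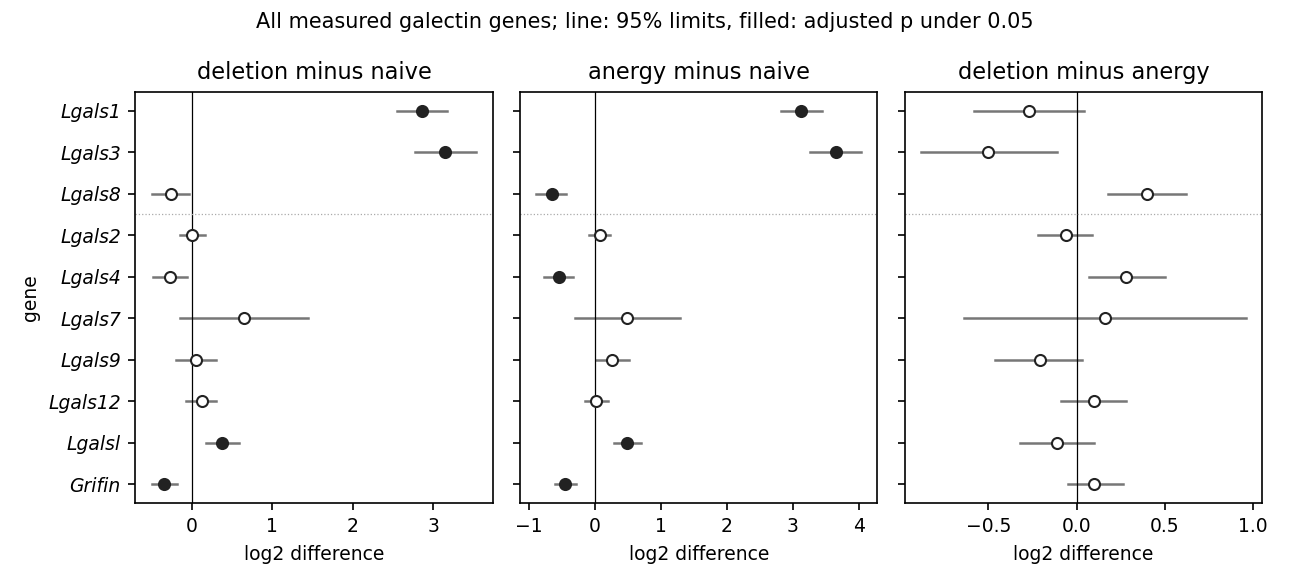
Log2 differences (horizontal axis, a separate range in each panel) of the 10 measured galectin genes in deletion minus naive, anergy minus naive and deletion minus anergy. Lines are 95% limits and filled points passed the adjusted threshold of 0.05. Lgals1 and Lgals3 stand at 2.86 to 3.65 above naive, the other 8 genes within 0.66 of it, and no point is filled in deletion minus anergy.

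Galectins bind what the glycan enzymes of the cell present, and 28 of 34 listed enzymes that build their ligands were measured. These trim and branch N-glycans, extend core 2 O-glycans or add N-acetyllactosamine. In deletion against naive 6 rose, 4 fell and 18 did not pass, beside 19.0% of all probe sets called. In anergy against naive 5 rose, 4 fell and 19 did not pass, beside 26.8% of all probe sets called. The median difference of the 28 was 0.00 in deletion and 0.03 in anergy. Beside Lgals1 and Lgals3 the larger rises were those of Gcnt1, the core 2 branching enzyme (2.17 ± 0.15, SE, in deletion and 2.15 ± 0.15 in anergy), and B4galt5, a galactosyltransferase (0.96 ± 0.09 and 1.30 ± 0.09). Gcnt1 lay at a mean of 2.68 in naive, 4.85 in deletion and 4.83 in anergy cells, beside array medians of 4.44 to 4.58. A second probe set of Gcnt1 gave differences of 0.19 and 0.26 and did not pass. B3gnt2, which extends polylactosamine, rose by 0.73 ± 0.10 in deletion and 0.54 in anergy, and B3gnt5, which extends glycolipids, by 0.90 ± 0.17 and 0.99. The falls were led by Man2a2, a Golgi mannosidase (-1.06 ± 0.23 and -1.67 ± 0.23), and B4galt1, the main galactosyltransferase of N-acetyllactosamine (-0.62 ± 0.10 and -0.74 ± 0.10), with B3gnt9 and B4galt3 at -0.31 and -0.34 in deletion and -0.47 and -0.44 in anergy. Mgat5, which makes the branch that galectin-3 binds best, gave -0.07 ± 0.09 in deletion and 0.02 ± 0.09 in anergy and did not pass. In deletion against anergy 2 of the 28 had an unadjusted limma p under 0.05, as had 188 of the 1246 probe sets. None of the 28 passed after adjustment, beside 3.37% of all probe sets called. B4galt5 was called lower in deletion with the replicate block (-0.34, limma adjusted p = 0.0344 against 0.0858 without it). It was also called after quantile normalization (-0.38, limma adjusted p = 0.0225), with array weights and without deletion replicate 1. The calls of Mgat1 (0.29, adjusted p = 0.0479) and B4galt4 (0.44, adjusted p = 0.0494) in deletion were lost after median centring and, for each gene, without any 1 of 7 or more arrays.

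Enzymes that cap galactose can hide it from galectins, and alpha-2,6 sialic acid, added by St6gal1, is known to block galectin-1. Of 16 listed capping enzymes 14 were measured. In deletion 1 rose, 2 fell and 11 did not pass, beside 19.0% of all probe sets called. In anergy 1 rose, 4 fell and 9 did not pass, beside 26.8% of all probe sets called. The median differences were -0.05 and -0.02. St6gal1 fell in deletion (-0.90 ± 0.15, SE) and in anergy cells (-2.38 ± 0.15). It was higher in deletion than in anergy by 1.48 ± 0.15 (limma adjusted p = 0.000368). St3gal3, which adds alpha-2,3 sialic acid, fell in both (-0.60 ± 0.07 and -0.62 ± 0.07). St3gal1, which sialylates core 1 O-glycans, fell in anergy (-0.77 ± 0.11), as did Fut2 (-0.25 ± 0.07), whose call was lost without any 1 of 4 arrays. The second Fut2 probe set did not pass there (-0.22, limma adjusted p = 0.189). St3gal4 rose in deletion (0.48 ± 0.09), and St3gal5, the GM3 synthase, rose in anergy (0.52 ± 0.10). In deletion against anergy 3 of the 14 were higher and 1 lower at an unadjusted limma p under 0.05. Of all 1246 probe sets, 188 were under it in either direction. After adjustment 2 of the 14 were higher and 0 lower in limma, beside 2.09% and 1.28% of all probe sets. The second was St3gal4 (0.44 ± 0.09, limma adjusted p = 0.0315), which passed in 7 of 17 alternative settings.

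Of 33 glycoproteins and receptors listed as described galectin partners, 16 were measured. In deletion 2 rose, 6 fell and 8 did not pass, with a median of -0.20, beside 19.0% of all probe sets called. In anergy 4 rose, 6 fell and 6 did not pass, with a median of -0.17, beside 26.8% of all probe sets called. Cd44, a hyaluronan receptor that carries galectin ligands, rose by 1.85 ± 0.17 (SE) in deletion and 1.97 ± 0.17 in anergy. Vcan, the proteoglycan versican, rose by 0.98 ± 0.09 and 0.63 ± 0.09. Havcr2, the receptor Tim-3, rose in anergy (0.86 ± 0.12), and was lower in deletion than in anergy (-0.76 ± 0.12, limma adjusted p = 0.00608). Group means of Vcan (3.54 to 4.52) and Havcr2 (3.75 to 4.62) lay near or below the array medians, 4.44 to 4.58. Lamp2, a lysosomal membrane glycoprotein, rose in anergy on its brighter probe set (0.63) and gave -0.01 on the other (limma adjusted p = 0.948). The call on the brighter probe set was lost after median centring (limma adjusted p = 0.0586). It was also lost without naive replicate 3, anergy replicate 1 or anergy replicate 2 (limma adjusted p = 0.0802, 0.0669 and 0.08). Cd2, an adhesion receptor of T cells, fell, by -1.57 in deletion and -2.18 in anergy. Tgfbr2 (-1.02 and -1.47), Ifngr1 (-0.63 and -0.71) and Tgfbr1 (-0.92 and -1.17) fell in both groups. Igf1r fell in anergy (-1.54 ± 0.25, limma adjusted p = 0.0011) and did not pass in deletion (0.08, adjusted p = 0.919). Deletion against anergy had 2 of 16 higher, Igf1r (1.62 ± 0.25, limma adjusted p = 0.00637) and Cd2 (0.61 ± 0.14, adjusted p = 0.0390), and 1 lower, Havcr2. Over all probe sets 2.09% were called higher and 1.28% lower in this comparison. Tgfbr2 was called there with the replicate block (0.46, limma adjusted p = 0.0322 against 0.0858) and after quantile normalization (0.37, adjusted p = 0.0238). Its second probe set gave 0.23 there and did not pass without the block (limma adjusted p = 0.129). The Cd2 call held in 8 of 17 alternative settings, and that of Igf1r was lost when only these groups were fitted (adjusted p = 0.0602). Cd69, a galectin-1 partner, did not pass over all arrays in deletion (-0.44) or anergy (-0.82), and both were called without deletion replicate 3 (-0.99, limma adjusted p = 0.0161, and -0.82, adjusted p = 0.0147).

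The genes most like each galectin over the 9 arrays were sought by the root mean square (RMS) difference between log2 values, each centred on the mean of its gene. For Lgals1 the nearest were Cks1b (0.15), Cks2 (0.22), Angptl2 (0.28) and Lgals3 (0.31), where the median gene stood at 1.43. For Lgals3 the nearest were Cks1b (0.27), Lgals1 (0.31), Cks2 (0.40) and Angptl2 (0.50), with a median gene at 1.64. Cks1b and Cks2 encode small subunits of cyclin-dependent kinases, and Angptl2 a secreted angiopoietin-like protein. Cks1b had values of 7.75, 7.44 and 7.10 in the naive arrays, 10.76, 10.68 and 10.27 in deletion and 10.86, 10.90 and 10.66 in anergy. Like Lgals1 and Lgals3, Cks1b was lowest of its group in deletion replicate 3, and Cks2 was lowest there too (10.49 against 10.81 and 10.83), while Angptl2 was highest there (7.78 against 7.41 and 7.45).

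The nearest genes to Lgals8 were Galt (0.08), Mfng (0.09), Naglu (0.09) and Zc3h11a (0.10), where the median gene stood at 0.32. Galt encodes an enzyme of galactose metabolism, Mfng the Notch-modifying Manic fringe, and Naglu a lysosomal glucosaminidase. All 4, like Lgals8, had their lowest value in anergy replicate 3, at 3.73 for Galt, 8.48 for Mfng, 5.37 for Naglu and 9.67 for Zc3h11a. Each of these 4 fell in anergy against naive, with differences of -0.58, -0.67, -0.57 and -0.52, and Mfng also fell in deletion (-0.37, limma adjusted p = 0.0323). The RMS difference measures a like course over 9 arrays that share the same groups and scatter. Because the genes near all 3 galectins were picked by it, shared lowest arrays and like group differences largely follow from that choice.

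**Figure D4:**
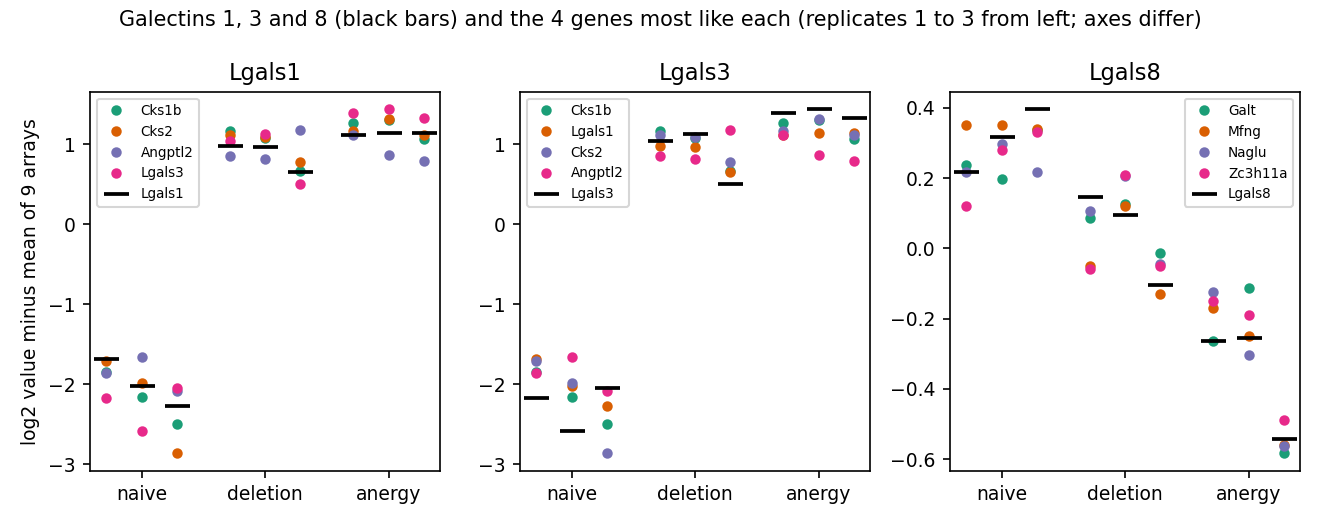
Log2 values minus the mean of the 9 arrays (vertical axis, a separate range in each panel) for Lgals1, Lgals3 and Lgals8 (black bars) and the 4 genes with the smallest RMS difference from each (coloured points), in replicates 1 to 3 of each group from left to right. Cks1b lies closest to Lgals1 (RMS difference 0.15), and all 5 genes of the Lgals8 panel are lowest in anergy replicate 3.

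Galectin-3 is also abundant in macrophages, so markers of other cells were set beside these results. Of 25 listed macrophage, monocyte and dendritic cell markers 13 were measured, and 10 of these had a mean below the median of the table. Their summed linear level ran from 277 to 286 in naive, 230 to 271 in deletion and 238 to 254 in anergy arrays, lower in every deletion and anergy array than in any naive array. The median log2 difference of the 13 from naive was -0.02 in deletion and -0.03 in anergy. Of the 13, none rose in deletion in limma (0 at an unadjusted p under 0.05) and 1 fell (Ly75), and 1 rose (Cx3cr1, 0.44 ± 0.07, SE) and 1 fell (Ly75) in anergy. Over all 1246 probe sets 19.0% were called in deletion and 26.8% in anergy against naive. An unadjusted limma p under 0.05 was reached by 341 and 425 of them. These figures stand beside the counts of every marker list here. Ly75, the brightest of the 13, had log2 means of 6.65 in naive, 6.05 in deletion and 6.0 in anergy cells. Ly75 weighs most in the summed level, and the sum without it was not taken. The lower sums therefore do not show that the other markers were lower. The summed level of 4 B cell markers was 610 to 680 in naive, 404 to 574 in deletion and 376 to 433 in anergy arrays, with Cd22 higher and Cd72 lower in both antigen groups and Cxcr5 higher in deletion. That of 3 natural killer cell markers was 22.7 to 26.4, 23.3 to 25.1 and 23.5 to 26.5, and none of them passed in limma (0 at an unadjusted p under 0.05). That of 6 endothelial and stromal markers was 402 to 431, 507 to 574 and 308 to 377, and Pecam1, which T cells also express, was the gene that passed. Siglecf, the measured granulocyte marker, rose at means of 2.31 to 2.70, close to the lowest value of the table, 1.67. Il2ra, alone measured of 5 listed CD4 and regulatory T cell markers, rose in anergy by 1.16. Whether such cells have a part in that rise was not tested. Of 11 listed CD8 T cell identity genes Cd2 alone was measured here. Its linear level was 2960 to 3280 in naive, 904 to 1330 in deletion and 644 to 714 in anergy arrays. The cell type was taken from the labels. What part B cells or the other cell types have in the galectin values was not tested.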

How the data were processed

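Total RNA was extracted with Trizol and labelled with biotin, per the labels' protocols. In the deposited table are log2 expression values, 1 per probe set and array, made by the authors with RMA, per the submitters' processing notes. Its version and the annotation are not given in the sources used here. Values ran from 1.67 to 13.86, with array medians of 4.44 to 4.58, and no detection column was used, so low values carry no call of absence. Precision is limited by having 3 arrays a group, with a median standard error of 0.087 for a difference.

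Probe sets were named through their RefSeq accession, without its version, in a RefSeq table of GRCm38.p6, which named 963 of 1246 (77.29%). Of several probe sets of a gene, the brightest on average stood for it. Values were used as deposited, with no filter. The 3 group differences came from limma 3.58.1 (R 4.3.3) fitted over all 9 arrays (6 residual and 3.65 prior degrees of freedom), two-sided, and the fit was tested on simulated data. The members and lists were chosen with earlier results of these data known. By rule, the text names every galectin, up to 6 called genes of each list and comparison with the smallest adjusted p, and the 4 genes most like each member; other genes were named after their values were seen.

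Same-numbered deletion and anergy arrays deviated together from their group means (r = 0.195, 0.270 and 0.280), so the numbers were taken to pair these samples, and the blocked value stands beside a result where it changes the call. The labels do not state this pairing. Against naive cells the correlations were not all above 0.1. They were -0.136, 0.118 and -0.142 for deletion and -0.154, 0.274 and 0.175 for anergy. Arrays of different numbers were not compared, so the pairing was read from these same data. Alternatives were 2 scalings, a replicate block, fits to the groups compared alone, other moderation, array weights, a filter on dim probe sets (33.4% left out), a 2-fold limit for counts, leaving out each array and an exact permutation test.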

Additional observations from a re-analysis of the deposited data

How the results depend on the processing

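Of the 9 differences of Lgals1, Lgals3 and Lgals8, none changed direction in 17 alternative fits, and 7 stayed on the same side of the threshold in all 17. Leaving out 1 array at a time gave these ranges against naive: Lgals1 2.72 to 3.01 in deletion and 2.99 to 3.28 in anergy, Lgals3 3.00 to 3.35 and 3.49 to 3.76, Lgals8 -0.31 to -0.19 and -0.71 to -0.57. For deletion against anergy the ranges were -0.33 to -0.16, -0.62 to -0.30 and 0.31 to 0.47. Lgals8 in deletion against naive became called without anergy replicate 3 (-0.26, limma adjusted p = 0.0440; range over the 17 fits 0.044 to 0.335). In deletion against anergy it became called under quantile normalization (0.34, adjusted p = 0.0499) and array weights (0.33, adjusted p = 0.0401; range 0.0401 to 0.207). With the replicate block the Lgals1, Lgals3 and Lgals8 differences between deletion and anergy were -0.27, -0.50 and 0.40 (limma adjusted p = 0.244, 0.194 and 0.0569), and the block changed no call of a galectin in any comparison.

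The exact permutation test of 3 arrays against 3 cannot go below p = 0.1, so the calls against naive of Lgals1 (2.86 and 3.13), Lgals3 (3.15 and 3.65) and Lgals8 (-0.66) have no exact p under the threshold. Counts of called probe sets were, with at least 2-fold required, 32 higher and 27 lower in deletion against naive, 38 and 42 in anergy against naive, and 5 and 6 in deletion against anergy, from 106 and 131, 134 and 200, and 26 and 16. In deletion against anergy the higher count was 13 after median centring, 8 with only these groups fitted and 44 with array weights, and 8 to 30 without 1 array (deletion replicates 2 and 3 gave 8 and 14 when left out, anergy replicates 2 and 3 gave 15 and 17). The lower count was 38 when quantile-normalized, 31 with array weights, and 12 to 19 without 1 array.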
